A study of Mus musculus with 12 samples.

Results

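Zinc finger genes whose mouse symbol begins with Zfp and a number were examined in BV2 cells, an immortalised mouse microglial line. Members were the protein-coding genes of this symbol pattern with a mean of at least 2 CPM (a gene's reads relative to all reads of its library) over 12 libraries, after the reads of Rn18s and Lars2 had been left out of the library totals. Of 354 protein-coding Zfp genes with at least 1 read, 133 met this rule, in a table of 24934 genes. Members were thus selected on their mean level over all libraries, so a gene could pass through 1 group. Without the Acacetin libraries 9 members would fall under the limit (Zfp24, Zfp35, Zfp148, Zfp281, Zfp369, Zfp386, Zfp445, Zfp638 and Zfp871), and without Acacetin 3 alone these 9 and Zfp28 would. None of these 10 was called by edgeR in any comparison. The members just inside the limit were Zfp28 at 2.02 CPM, Zfp24 at 2.04 CPM and Zfp871 at 2.14 CPM. The genes just outside it were Zfp949 at 1.99 CPM, Zfp13 at 1.98 CPM and Zfp27 at 1.96 CPM.

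Most Zfp genes encode proteins with C2H2 fingers, short folds in which cysteines and histidines hold a zinc ion and which usually read DNA. Many also carry a KRAB box, through which TRIM28 (KAP1) recruits histone methyltransferases, HP1 proteins and other chromatin repressors, with transposable elements as a major class of targets. Zfp36, Zfp36l1 and Zfp36l2 differ from the rest in having CCCH fingers, which bind AU-rich elements in mRNA and bring the CCR4-NOT deadenylase, so that bound transcripts are degraded. In macrophages and microglia the ZFP36 family is known for limiting cytokine transcripts such as Tnf. A symbol of the Zfp series is a naming convention and not a family by descent.

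The 12 libraries formed 3 groups of 4. Control cells were untreated by their label, OGD cells were exposed to oxygen glucose deprivation and then re-oxygenated, and the Acacetin group was given the flavone acacetin at 10 µM. Acacetin alone is named in that group's treatment label, while the series' design text places it after OGD, and the group was read so here. Whether the 4 libraries of a group were grown as separate cultures is not stated, so p-values measure only the spread between these samples.

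Depth ran from 16427886 to 32693066 counted reads per library. The 133 members together took from 0.183% to 0.269% of the reads. Of 10 microglial and macrophage markers, 9 were above 0.1 CPM with P2ry12 below it, and their summed level was 2607 to 4581 CPM. Marker sums for astrocytes, neurons, oligodendrocytes, endothelium, fibroblasts and T cells were at most 6.26 CPM. In OGD 2 and OGD 3, Rn18s took 13.1% and 21.3% of reads, against 0.137% to 1.86% in the remaining 10 libraries. Over all genes, log2 CPM was set against the log2 gene length implied by the deposited counts and length-corrected values. The slope was lowest in Acacetin 1 (-0.06) and highest in Acacetin 3 (0.45), and OGD 4 (0.32) was the highest outside the Acacetin group.

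All 133 members could be matched to mouse coding sequences. A KRAB box was found in 36 of them and a SCAN domain, a dimerisation module, in 8, of which 4 also had a KRAB box. The CCCH class held 3 members. The members had a median of 8 C2H2 fingers and the KRAB members a median of 11, with a highest value of 36 in Zfp142. Chromosome 7 carried 35 members, or 26.3%. The members were mostly weakly expressed, with a median of 1.29 FPKM (fragment counts corrected for both depth and length). The highest per-length levels were those of Zfp593 at 38.6 FPKM, Zfp385a at 34.9 FPKM, Zfp771 at 24.9 FPKM, Zfp706 at 21.0 FPKM and Zfp36 at 18 FPKM.

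The promoter windows shown here belong to 6 members on which the results turn. They are Zfp36 and Zfp36l1 of the CCCH class and 4 KRAB genes that lie near each other on chromosome 7 and moved in opposite directions. Each window is the 250 bases before the gene's start in RefSeq on GRCm38.p6, written 5′ to 3′ on the gene's strand, which is the minus strand for all 6. The windows are chr7:28379229-28379478 for Zfp36, chr12:80113014-80113263 for Zfp36l1, chr7:127376051-127376300 for Zfp747, chr7:127406823-127407072 for Zfp764, chr7:127422035-127422284 for Zfp688 and chr7:127449159-127449408 for Zfp689. Capitals mark matches on either strand to an NF-kB pattern (GGG, any 5 bases, CC), a hypoxia response core (ACGTG or GCGTG) and a CRE core (TGACG), which may overlap each other.
Zfp36: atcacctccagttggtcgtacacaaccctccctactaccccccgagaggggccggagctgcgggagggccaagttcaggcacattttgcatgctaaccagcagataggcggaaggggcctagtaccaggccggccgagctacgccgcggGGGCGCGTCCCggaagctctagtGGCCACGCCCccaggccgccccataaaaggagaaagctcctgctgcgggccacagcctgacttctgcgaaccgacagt
Zfp36l1: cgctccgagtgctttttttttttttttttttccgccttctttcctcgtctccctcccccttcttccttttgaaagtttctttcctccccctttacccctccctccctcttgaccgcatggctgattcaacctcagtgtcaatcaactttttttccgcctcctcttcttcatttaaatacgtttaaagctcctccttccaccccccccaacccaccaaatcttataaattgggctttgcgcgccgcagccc
Zfp747: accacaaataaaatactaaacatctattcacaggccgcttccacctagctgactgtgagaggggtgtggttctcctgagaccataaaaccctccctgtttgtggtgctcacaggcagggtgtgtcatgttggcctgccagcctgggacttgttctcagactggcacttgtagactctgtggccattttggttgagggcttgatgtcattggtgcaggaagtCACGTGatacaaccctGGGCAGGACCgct
Zfp764: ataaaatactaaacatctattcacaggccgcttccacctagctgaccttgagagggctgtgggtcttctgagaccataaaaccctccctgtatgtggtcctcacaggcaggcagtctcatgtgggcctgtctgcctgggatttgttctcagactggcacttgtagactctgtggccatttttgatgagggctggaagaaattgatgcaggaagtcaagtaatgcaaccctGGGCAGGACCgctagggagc
Zfp688: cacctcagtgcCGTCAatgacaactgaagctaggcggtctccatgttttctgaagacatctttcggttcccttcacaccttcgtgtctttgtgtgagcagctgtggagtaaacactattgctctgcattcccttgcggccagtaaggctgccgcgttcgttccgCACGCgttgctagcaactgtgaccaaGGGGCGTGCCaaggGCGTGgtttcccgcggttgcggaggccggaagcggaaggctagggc
Zfp689: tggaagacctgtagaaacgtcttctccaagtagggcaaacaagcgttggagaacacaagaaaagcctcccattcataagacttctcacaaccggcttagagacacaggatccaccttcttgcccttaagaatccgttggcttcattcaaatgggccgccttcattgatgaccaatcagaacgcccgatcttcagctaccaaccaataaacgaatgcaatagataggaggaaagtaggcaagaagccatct

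The Zfp36 window held 3 matches to the NF-kB pattern, counted on both strands and partly overlapping each other, and 1 to the hypoxia core. The Zfp36l1 window held 0 matches to any of the 3 patterns. RefSeq windows were found for 105 of the 133 members, and Zfp36l2 was not among these. The NF-kB pattern occurred in 62.9% of these 105 and in 45.8% of all 32851 windows of the same length. The hypoxia core occurred in 50.5% of the members' windows against 38.6% of all, and the CRE core in 29.5% against 17.8%. A further pattern, the Zfp143 core (ACTACA, any 2 bases, TCCC), occurred in 8.57% of the members' windows against 1.67% of all. The members' windows were richer in G and C, with a median of 58.4% against 52.4% in all windows. They also held more CG steps (C followed by G), with a median of 15 against 6. All windows include those of genes that were not tested here. The part of base composition in the motif shares was not tested. The patterns were picked after results were seen and describe letters, not bound sites.

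The 3 CCCH genes were compared first, as the members that act on mRNA. Zfp36 fell after OGD, Zfp36l2 rose, and Zfp36l1 did not pass the test in OGD cells but fell in Acacetin cells. Levels are in CPM with TMM-scaled library sizes, and fold changes are from edgeR's quasi-likelihood test with Benjamini-Hochberg adjustment over all 13249 tested genes, called at an adjusted p under 0.05. Where 4 values are given, they follow the library numbers. In these bulk samples, fewer cells expressing a gene and less RNA per cell cannot be told apart.

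Zfp36 (tristetraprolin, ENSMUSG00000044786.7, chromosome 7) stood at 101, 109, 80.4 and 117 CPM in Control 1 to 4, at 65.6, 59.5, 62.3 and 68.0 CPM in OGD 1 to 4, and at 59.7, 60.02, 44.4 and 48.4 CPM in Acacetin 1 to 4. Every Control library was above every OGD and every Acacetin library, while the OGD and Acacetin libraries overlapped. The log2 fold change was -0.68 ± 0.14 (SE, adjusted p = 0.00306) in OGD and -0.94 ± 0.14 (adjusted p = 0.000622) in Acacetin against Control.

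Zfp36l2 (ENSMUSG00000045817.9, chromosome 17) stood at 16.4, 17.5, 14.4 and 18.3 in Control, 37.4, 40.4, 35.5 and 57.7 in OGD and 27.7, 43.5, 47.8 and 41.1 CPM in Acacetin. Control lay below both other groups without overlap, and the means were 16.6 ± 1.68, 42.7 ± 10.2 and 40.04 ± 8.66 CPM (SD, n = 4 each). Its rise was 2.57-fold in OGD (log2 1.36 ± 0.19, adjusted p = 0.000271) and 2.41-fold in Acacetin (log2 1.27 ± 0.19, adjusted p = 0.000601). No alternative processing ended the calls of Zfp36 or Zfp36l2.

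Zfp36l1 (ENSMUSG00000021127.8, chromosome 12) stood at 11.4, 10.9, 8.69 and 14.9 in Control, 8.43, 5.10, 6.17 and 9.10 in OGD and 3.80, 5.12, 7.78 and 7.98 CPM in Acacetin. OGD 4 lay above Control 3, so those groups overlapped, while Acacetin lay wholly below Control. The log2 fold change was -0.67 ± 0.27 in OGD (adjusted p = 0.0801) and -0.89 ± 0.27 in Acacetin (adjusted p = 0.0259), and 6 of 19 alternatives ended the latter call: limma on both FPKM scales (0.192 and 0.185) and the removal of Control 1, Control 2, Control 4 or Acacetin 2 (0.0531 to 0.129). DESeq2 (0.046), a fit of only the 8 libraries compared (0.0257) and the fit with a replicate block (0.0453) called it in OGD as well. The plot of the 3 CCCH genes by library shows Zfp36l2 moving against the other members of its class.

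**Figure D1:**
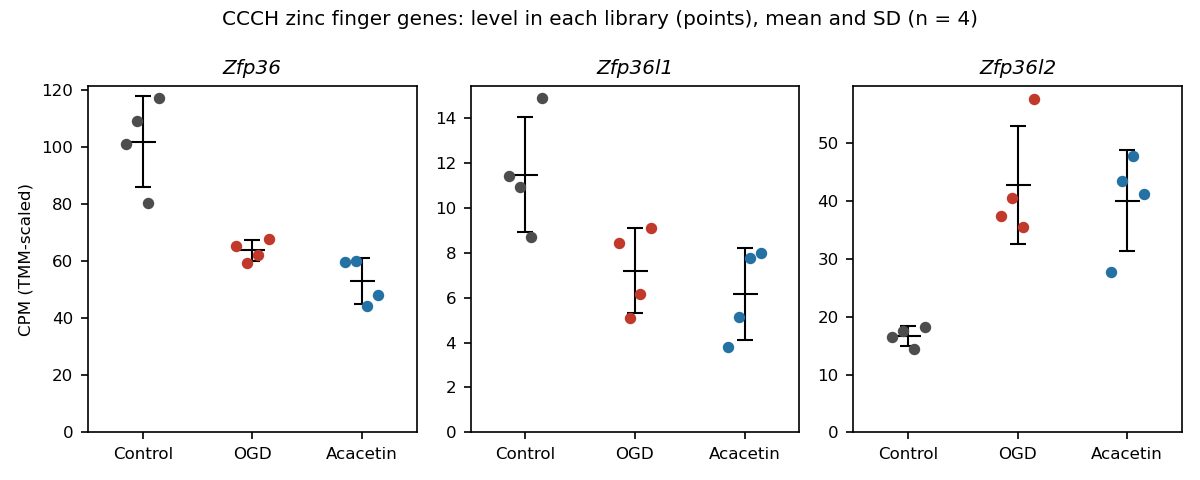
Level of Zfp36, Zfp36l1 and Zfp36l2 in CPM (vertical axes from 0) in each Control, OGD and Acacetin library (points), with the mean and SD (n = 4). Zfp36 is lower in OGD (59.5 to 68.0 CPM) than in Control (80.4 to 117 CPM), and Zfp36l2 is higher in OGD (35.5 to 57.7 CPM) than in Control (14.4 to 18.3 CPM).

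Of 19 genes for the CCR4-NOT complex and kinases that act with ZFP36 proteins, 4 rose and 0 fell after OGD, a called share of 21.05% where 28.8% of all tested genes were called. The 4 were Cnot9, a CCR4-NOT subunit (log2 0.81), Tob1 (1.04) and Tob2 (1.25), adaptors of the deadenylase, and Mapk14 (0.74), the p38 kinase whose pathway holds ZFP36 inactive. Of 19 tested transcripts known as ZFP36 targets, 2 rose and 8 fell (52.6% called, beside 28.8% of all tested genes), with a median log2 fold change of -0.13 beside 0.03 over all tested genes. The rises were Nfkbid (1.58) and Il1b (1.31), and among the falls were Ccl3 (-1.94), Ptgs2 (-1.71) and Plk2 (-1.52). Tnf had a log2 fold change of -0.39 ± 0.17 and did not pass the test.

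Across all 133 members, OGD against Control gave 22 rises, 20 falls and 91 genes that did not pass the test. The called share was 31.6% of members, where 28.8% of all tested genes were called (16.2% higher and 12.6% lower). The groups did not overlap for 61 members or 45.9%, beside 36% of all tested genes, and of these 34 were higher and 27 lower in OGD (19% and 17% of all genes). The median log2 fold change of the members was 0.11, beside 0.03 over all genes, and turned to -0.01 on the log2(FPKM + 1) scale and -0.04 on the log2(FPKM + 0.1) scale. With limma on log2(FPKM + 1) the split was 7 rises and 20 falls, and over all genes 911 of 2831 calls were then higher, beside 2148 of 3813 by edgeR. Without the rRNA-rich libraries OGD 2 and OGD 3 the members gave 16 rises and 10 falls, and 1131 of 2010 calls over all genes were higher.

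**Figure D2:**
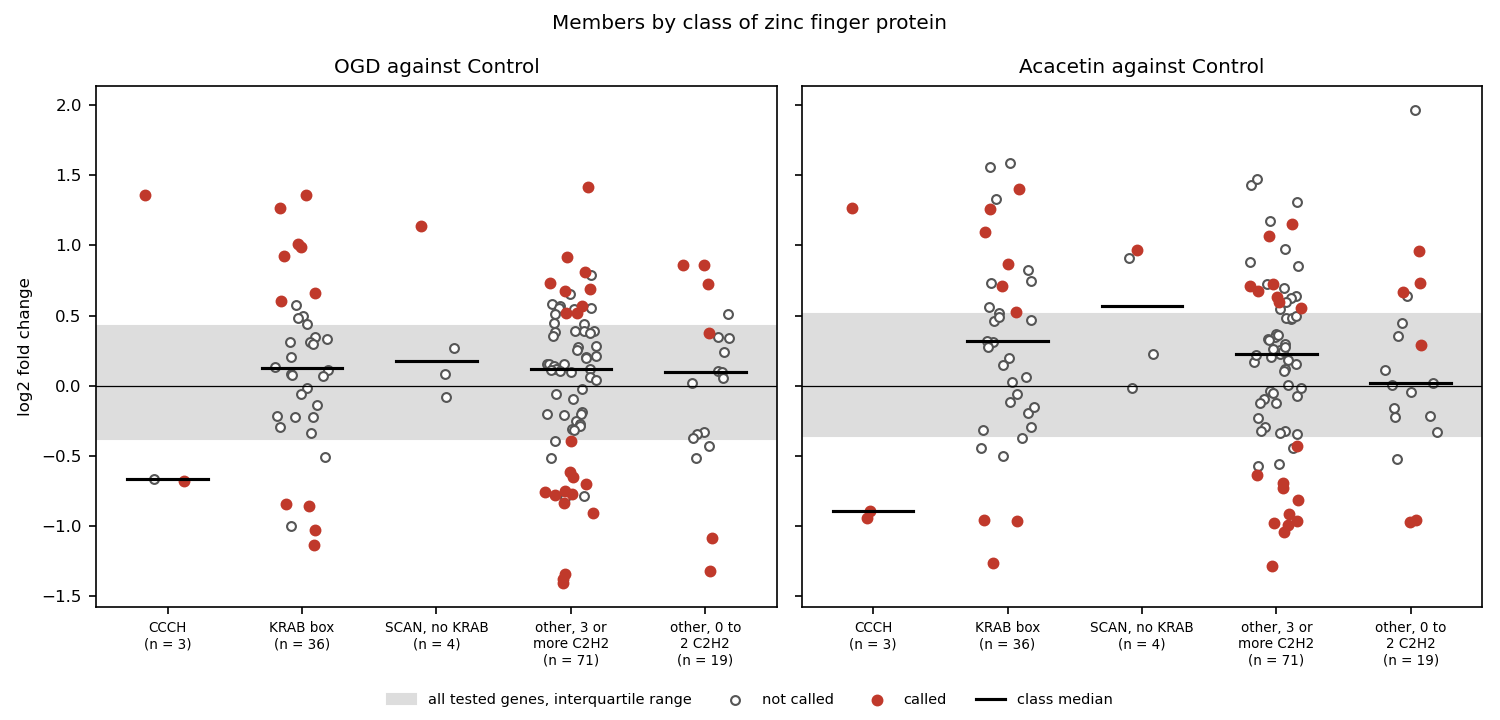
Log2 fold change of each of the 133 members (points, filled when called by edgeR) against Control for OGD (left) and Acacetin (right), by class of zinc finger protein, with class medians as lines and the interquartile range of all tested genes in grey. KRAB members lie on both sides of 0 in OGD, with a median of 0.12, close to the 0.12 of other members with 3 or more C2H2 fingers.

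Among the 36 KRAB members, 7 rose and 4 fell after OGD, a called share of 30.6%, and the median log2 fold change was 0.12. Among the 97 members without a KRAB box, 15 rose and 16 fell, with a median of 0.11. Members with 10 or more C2H2 fingers gave 7 rises and 6 falls of 49, and those with 0 to 2 gave 5 rises and 4 falls of 23. The 8 SCAN members gave 2 rises and 0 falls. Called shares were 26.5% with 10 or more fingers, 39.1% with 0 to 2 and 25% with a SCAN domain, on either side of the 28.8% of all tested genes. The 128 Zfp genes tested below the 2 CPM limit gave 4 rises and 9 falls, or 10.2%.

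Of a list of 30 KRAB corepressor and heterochromatin genes, 7 rose and 1 fell after OGD. The list is wider than the KRAB pathway's own corepressors, which were not counted apart. The called share of 26.7% was near the 28.8% of all tested genes, and the median log2 fold change was 0.43, beside 0.03 over all genes. Trim28, the scaffold that KRAB boxes bind, had a mean of 254 ± 33.3 CPM in Control and 367 ± 8.91 CPM in OGD (log2 0.53 ± 0.16, adjusted p = 0.0212). Suv39h2 and Suv39h1, which methylate histone H3 at heterochromatin, rose by log2 1.16 and 0.47, Cbx1, an HP1 protein, by 0.77, and Uhrf1, which binds hemimethylated DNA, by 0.93. Hdac1 and Smarcad1 also rose. Ehmt2, the G9a methyltransferase, fell (log2 -0.57). Setdb1, which works with Trim28, had a log2 fold change of 0.43 ± 0.22 and did not pass the test.

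Among KRAB members, the largest rises were those of Zfp764 and Zfp747, a neighbouring pair on chromosome 7. Zfp764 (ENSMUSG00000045757.7) stood at 1.72, 1.91, 2.14 and 1.63 in Control, 3.85, 5.6, 4.37 and 5.16 in OGD and 4.37, 5.997, 4.95 and 4.23 CPM in Acacetin. Zfp747 (ENSMUSG00000054381.6) stood at 1.72, 2.12, 1.71 and 2.45 CPM in Control, 3.75 to 5.75 CPM in OGD and 2.75 to 4.98 CPM in Acacetin. For both genes Control lay below the other groups without overlap. The log2 fold change in OGD was 1.36 ± 0.22 (adjusted p = 0.000656) for Zfp764 and 1.27 ± 0.26 (adjusted p = 0.00228) for Zfp747, and limma on log2(FPKM + 1) ended the call of Zfp747 (adjusted p = 0.0596).

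The proteins of Zfp764 and Zfp747 share 37.0% and 39.7% of their 8-residue words, and how the authors' counting divided reads between them is uncertain. Their promoter windows, printed above, aligned with each other over 243 columns with 219 identical bases (90.1%). Local alignments of either window with those of Zfp688 or Zfp689 reached at most 26 columns. The shared part of the Zfp747 and Zfp764 windows includes the NF-kB pattern match near the 3′ end, and the hypoxia core matches of the Zfp747 window, in the run CACGTG, have 0 counterparts in the Zfp764 window.

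On the other side of the pair, Zfp688 and Zfp689 fell. Zfp688 (ENSMUSG00000045251.14) stood at 15.7, 12.6, 12.2 and 11.1 in Control, 7.26, 4.65, 6.87 and 4.71 in OGD and 10.9, 5.82, 4.09 and 5.78 CPM in Acacetin. Zfp689 (ENSMUSG00000048921.12) stood at 7.24, 8.25, 5.71 and 7.86 CPM in Control, 3.67 to 4.45 CPM in OGD and 3.05 to 4.89 CPM in Acacetin. For both, Control lay above the other groups without overlap, with Acacetin 1 close to the lowest Control library for Zfp688. The log2 fold change in OGD was -1.14 ± 0.28 (adjusted p = 0.0076) for Zfp688 and -0.84 ± 0.22 (adjusted p = 0.0102) for Zfp689. Without OGD 2 and OGD 3 neither passed the test (adjusted p = 0.056 and 0.0686).

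These 4 genes belong to a run of 7 members on chromosome 7 with at most 5 other coding genes between neighbours. Their order among the RefSeq genes is Zfp553, Zfp771, Zfp768, Zfp747, Zfp764, Zfp688 and Zfp689. The first 3, which lack a KRAB box, did not pass the test in OGD, with log2 fold changes of 0.29 ± 0.13, 0.21 ± 0.21 and 0.10 ± 0.16. The run thus held a block of 3 uncalled genes, a block of 2 rises and a block of 2 falls, as the plot of the run shows. There were 6 such runs of 3 or more members, holding 28 members. On chromosome 7 as a whole, 9 members rose and 6 fell of 35, a called share of 42.9% beside 31.6% of all members and 28.8% of all tested genes. Among chromosomes with 5 or more members, the share ran from 0% on chromosome 18 (5 members) to 62.5% on chromosome 17 (8 members). It was 50% on chromosome 6 (12 members). In Acacetin against Control the chromosome 7 share was 28.6%, as for all members. In another chromosome 7 run, Zfp628 rose while its neighbours Zfp579, Zfp524 and Zfp580 fell and Zfp865 did not pass the test.

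**Figure D3:**
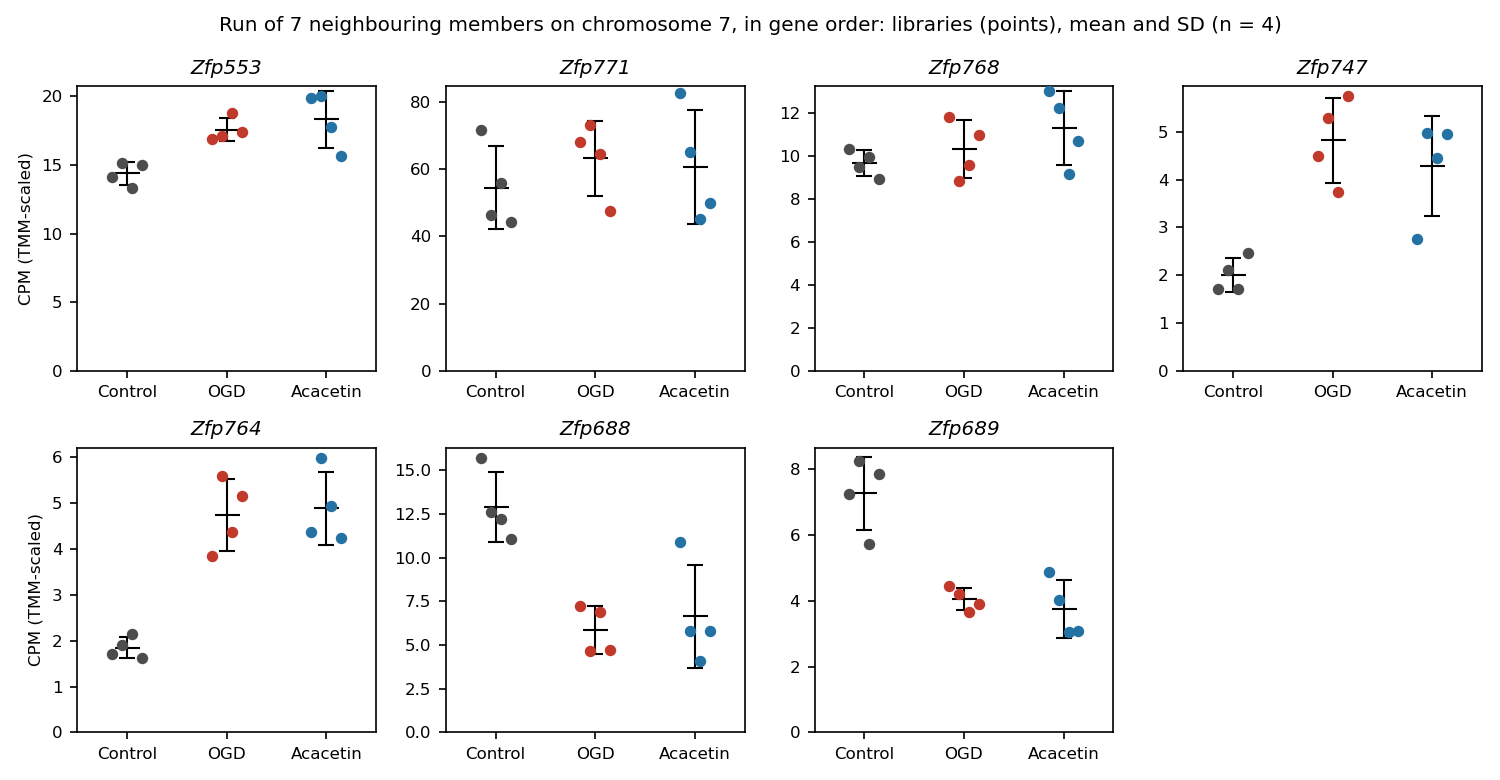
Level in CPM (vertical axes from 0) of the 7 neighbouring members on chromosome 7 in gene order, in each Control, OGD and Acacetin library (points), with the mean and SD (n = 4). Zfp747 and Zfp764 are higher in OGD (3.75 to 5.75 CPM) than in Control (1.63 to 2.45 CPM), while Zfp688 and Zfp689 are lower, and Zfp771 and Zfp768 overlap between all groups.

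Other KRAB members that rose were Zfp568, Zfp324 and Zfp94. Zfp568, known for silencing a placental Igf2 transcript in the mouse embryo, stood at 1.84, 1.91, 2.30 and 2.52 in Control, 3.73, 3.75, 4.22 and 5.62 in OGD and 2.99, 3.61, 7.91 and 6.04 CPM in Acacetin. Control lay below both other groups, and the log2 fold change was 1.01 ± 0.31 in OGD (adjusted p = 0.0233) and 1.26 ± 0.31 in Acacetin (adjusted p = 0.0084). The OGD call was the least stable of the large rises, since 8 of 19 alternatives ended it, among them limma on FPKM (adjusted p = 0.316 and 0.219) and the removal of Control 1, Control 2, Control 4, OGD 3 or OGD 4 (0.0564 to 0.0678). Limma also ended its Acacetin call (adjusted p = 0.0653 and 0.0531). Zfp324 rose by log2 0.99 ± 0.23 (adjusted p = 0.00509) and Zfp94 by 0.93 ± 0.18 (adjusted p = 0.0018), and both kept their calls under every alternative run.

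The KRAB members Zfp53 and Zfp655 fell. Zfp53 stood at 4.58, 5.93, 6.15 and 6.502 in Control, 2.72, 3.00, 3.36 and 2.34 in OGD and 2.33, 2.47, 2.64 and 2.20 CPM in Acacetin. Zfp53 shares 20.3% of its 8-residue words with Zfp51, so its reads too may be divided between copies. No OGD or Acacetin library reached the lowest Control library, and the log2 fold change was -1.03 ± 0.21 (adjusted p = 0.00262) in OGD and -1.26 ± 0.21 (adjusted p = 0.000997) in Acacetin. Zfp655 fell by 0.85 on the log2 scale in OGD (SE 0.20, adjusted p = 0.00604), but not without OGD 2 and OGD 3 (adjusted p = 0.107). The KRAB members Zfp445, Zfp28 and Zfp871 did not pass the test, with log2 fold changes of -0.22 ± 0.71, 0.09 ± 0.30 and -0.02 ± 0.76.

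The largest rise of any member was that of Zfp296 (ENSMUSG00000011267.9, chromosome 7), known as a partner of pluripotency factors in embryonic stem cells. It stood at 17.6, 10.5, 14.0 and 10.8 in Control, 30.5, 42.3, 37.5 and 31.0 in OGD and 34.4, 35.0, 22.4 and 19.2 CPM in Acacetin. Control lay below both other groups, with a log2 fold change of 1.42 ± 0.23 in OGD (adjusted p = 0.00057). An exon of Zfp296 overlaps one of Gemin7 on the opposite strand by 263 bases in GENCODE M21. Gemin7 averaged 61.5 CPM against 25.4 CPM for Zfp296, and with the strand setting of the counting not given, reads of the overlap cannot be told apart. Exons of 45 members overlapped those of another gene in that annotation, and for 14 of them, Zfp276, Zfp512b and Zfp524 included, the other gene reached at least 0.5 of the member's level.

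The other large rises without a KRAB box were Zfp213, Zfp628 and Zfp503. Zfp213, a SCAN member, stood at 11.95, 6.97, 11.9 and 5.27 in Control, 21.5, 20.3, 21.3 and 16.2 in OGD and 22.3, 18.5, 14.1 and 15.7 CPM in Acacetin. Control was split into a higher and a lower pair of libraries, yet all 4 lay below the other groups (OGD log2 1.14 ± 0.25, adjusted p = 0.00399). Zfp628 rose by log2 0.92 ± 0.25 (adjusted p = 0.0127), and 3 of 19 alternatives ended its call (adjusted p up to 0.0711). Zfp503, a corepressor of the developing brain and limb, rose from 5.91 ± 0.378 to 10.7 ± 0.787 CPM (log2 0.86 ± 0.18, adjusted p = 0.00263), but not with limma on FPKM (adjusted p = 0.134 and 0.118).

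The largest falls belonged to Zfp358 and Zfp580. Zfp358 (ENSMUSG00000047264.9, chromosome 8) stood at 32.7, 31.2, 29.4 and 28.7 in Control, 14.7, 11.5, 10.5 and 9.13 in OGD and 22.9, 12.1, 9.59 and 14.995 CPM in Acacetin. Zfp580 (ENSMUSG00000055633.7, chromosome 7) stood at 38.1, 29.9, 27.6 and 30.3 in Control, 16.1, 10.5, 10.1 and 11.6 in OGD and 23.6, 14.0, 11.9 and 14.7 CPM in Acacetin. Neither gene's Control libraries overlapped with the other groups, and Acacetin 1 was the nearest to them. In OGD Zfp358 was 2.65-fold lower (log2 -1.41 ± 0.23, adjusted p = 0.000729) and Zfp580 2.59-fold lower (log2 -1.37 ± 0.22, adjusted p = 0.000572).

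Zfp775, Zfp395 and Zfp414 also fell to less than 0.5 of the Control level. Zfp775 stood at 8.84, 9.46, 8.81 and 9.35 in Control, 4.77, 3.40, 2.66 and 3.48 in OGD and 6.32, 4.74, 3.65 and 4.72 CPM in Acacetin (OGD log2 -1.34 ± 0.22, adjusted p = 0.000748). Zfp395 stood at 19.8, 19.0, 16.3 and 18.9 in Control, 10.6, 4.15, 5.86 and 8.74 in OGD and 12.4, 7.86, 6.79 and 10.7 CPM in Acacetin (OGD log2 -1.32 ± 0.27, adjusted p = 0.00246). Zfp414 was among the more abundant members, at 62.6 to 81.0 CPM in Control, 27.5 to 36.3 CPM in OGD and 26.2 to 50.8 CPM in Acacetin (OGD log2 -1.08 ± 0.18, adjusted p = 0.000773). All 3 kept Control above the other groups without overlap, and no alternative ended their OGD calls. Zfp362 fell by 0.91 on the log2 scale (SE 0.23, adjusted p = 0.0103), but not without OGD 2 and OGD 3 (adjusted p = 0.11).

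Beyond these, the other 12 rises had log2 fold changes from 0.37 to 0.86 and the other 9 falls, Zfp36 aside, from -0.40 to -0.83. Zfp384, a DNA-binding regulator, stood at 13.8 to 17.3 CPM in Control and 21.4 to 32.4 CPM in OGD (log2 0.73 ± 0.15, adjusted p = 0.00315), but limma on FPKM did not call it (adjusted p = 0.202 and 0.182). Zfp207, which stabilises the spindle checkpoint protein Bub3, rose by 0.72 ± 0.25 (adjusted p = 0.045), and 13 of 19 alternatives ended that call, among them the removal of any Control library or of OGD 2, 3 or 4 (adjusted p from 0.079 to 0.119). Zfp335, a subunit of histone H3 methyltransferase complexes with a role in brain development, fell by 0.40 on the log2 scale (SE 0.12, adjusted p = 0.0248), and 6 alternatives ended the call, among them the removal of Control 1, Control 2 or OGD 2 (adjusted p = 0.0599, 0.0825 and 0.0698). Its exons overlap those of Pcif1, on the opposite strand and at a higher level (52.6 against 37.5 CPM).

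The 3 members that act at the ribosome did not pass the test in OGD. Zfp622, a factor of 60S subunit maturation, stood at 124 to 133 CPM in Control and 118 to 151 CPM in OGD (log2 0.11 ± 0.14, adjusted p = 0.609). Zfp598, the ubiquitin ligase of collided ribosomes, stood at 26.5 to 31.8 CPM in Control and 27.3 to 35.4 CPM in OGD (log2 0.05 ± 0.12, adjusted p = 0.787). Zfp593, another 60S maturation factor, stood at 104 to 139 CPM in Control and 64.9 to 101 CPM in OGD, without overlap, and yet its log2 fold change of -0.37 ± 0.21 did not pass the test (adjusted p = 0.215). The small and abundant Zfp706 stood at 110, 102, 102 and 102 CPM in Control and 131, 136, 135 and 137 CPM in OGD. It rose by 0.37 ± 0.10 (adjusted p = 0.0148). That call was absent with limma on FPKM (adjusted p = 0.436 and 0.433) and without Control 2 (adjusted p = 0.0505).

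In Acacetin against Control, 38 members were called, 20 higher and 18 lower, or 28.6% where 26.9% of all tested genes were called (14% higher and 12.9% lower). Groups did not overlap for 42 members (31.6%), beside 25.7% of all genes, and of these 22 were higher and 20 lower (12.1% and 13.5% of all genes). The median log2 fold change of the members was 0.23, beside 0.08 over all genes. The 9 members that met the 2 CPM limit through the Acacetin libraries were selected partly on high values there. Their part in this median was not tested. Both comparisons use the same Control libraries, so their values are given side by side in the plot of called members and are not independent. Of the members, 34 were called in both comparisons, 17 higher and 17 lower. The share of all tested genes called in both was not counted, so the 34 are a description only. Without Acacetin 1 the count rose to 68 members (43 higher and 25 lower), and 5818 genes were called in all.

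**Figure D4:**
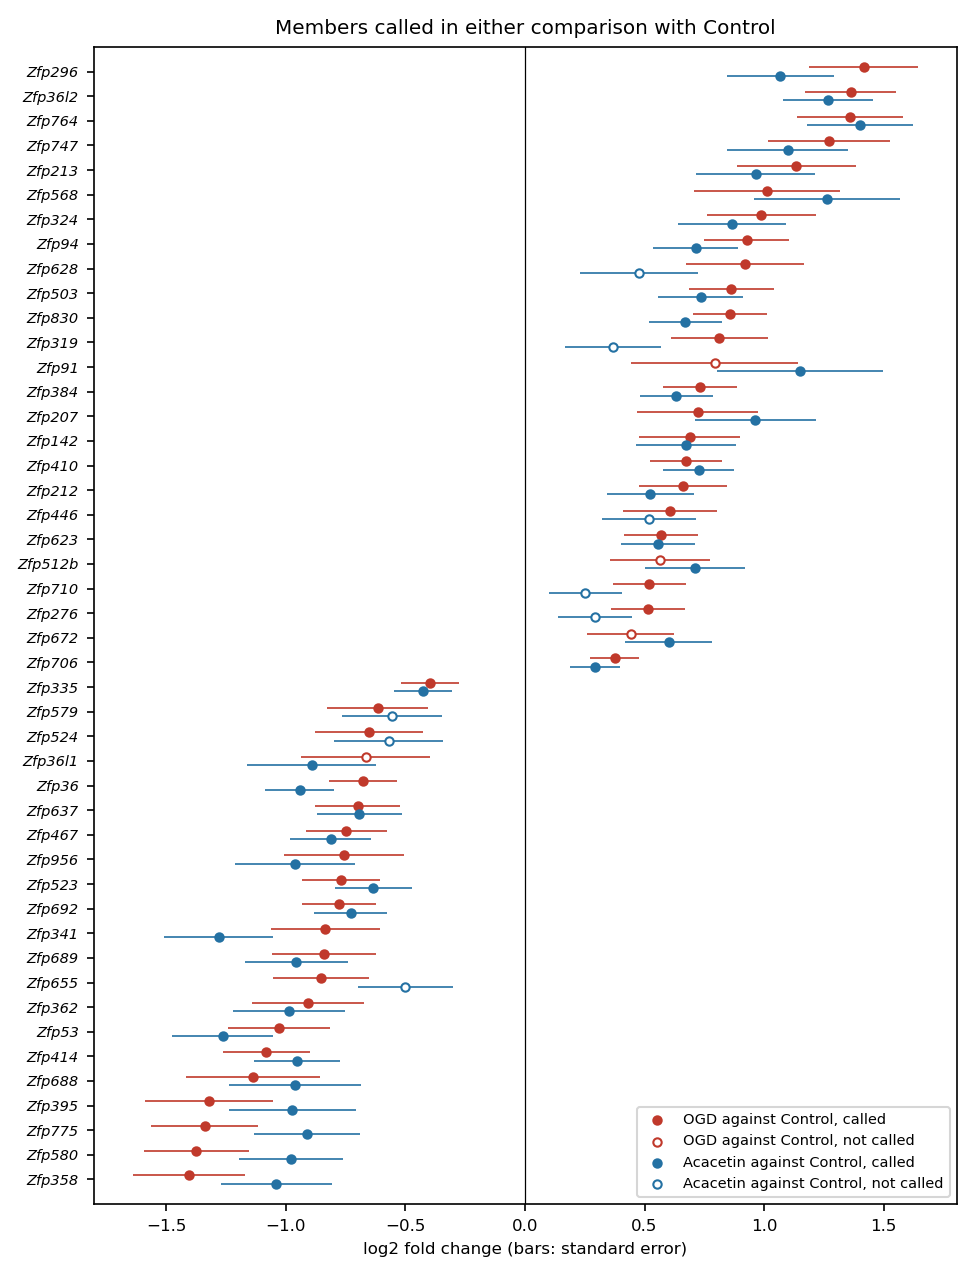
Log2 fold change against Control (horizontal axis, bars: SE) of the 46 members called in OGD (red) or Acacetin (blue), with filled points for called and open points for uncalled values, ordered by the OGD value. Every member plotted lies on the same side of 0 in both comparisons, which share their Control libraries, and the open points mark the 12 members called in 1 comparison.

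The 8 members called in OGD but not in Acacetin were Zfp276, Zfp319, Zfp446, Zfp524, Zfp579, Zfp628, Zfp655 and Zfp710. The 4 called in Acacetin but not in OGD were Zfp36l1, Zfp512b, Zfp672 and Zfp91. For none of these 12 did the direct comparison of Acacetin with OGD pass the test. Zfp319 stood at 7.26 to 9.19 CPM in OGD and 4.84 to 7.25 CPM in Acacetin, just short of overlap (log2 -0.44 ± 0.20, adjusted p = 0.83). Zfp91, a ubiquitin ligase of non-canonical NF-kB signalling, stood at 4.26, 4.60, 5.16 and 5.81 in Control, 7.67, 6.84, 10.5 and 9.39 in OGD and 4.08, 8.70, 19.3 and 11.8 CPM in Acacetin. Its Acacetin libraries spanned the Control range and beyond (log2 1.15 ± 0.35 against Control, adjusted p = 0.0257), and 8 of 19 alternatives ended that call, among them the removal of Control 1, Control 2, Control 3, Acacetin 3 or Acacetin 4 (0.0546 to 0.0845).

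Acacetin against OGD gave 0 called members by edgeR, where 0% of all 13249 tested genes were called. By unadjusted p under 0.05 there were 6 members, and 685 genes (5.17%) in all. DESeq2 called 0 members and 37 genes, and limma on either FPKM scale called 0 members. The groups did not overlap for 2 members, Zfp319 and Zfp341, both lower in Acacetin, beside 2.35% of all genes without overlap and 1.88% lower without overlap. Zfp341 stood at 2.49, 2.75, 2.42 and 2.501 CPM in OGD and 2.33, 2.12, 1.29 and 1.75 CPM in Acacetin (log2 -0.45 ± 0.23, adjusted p = 0.83), and at 4.17 to 5.04 CPM in Control. The members' median was 0.05, beside -0.02 over all genes, and 0.19 on the log2(FPKM + 1) scale, where all genes had a median of 0.16. These member medians too include the 9 members that met the 2 CPM limit through the Acacetin libraries.

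The 6 members with the smallest p in Acacetin against OGD were Zfp445, Zfp869, Zfp319, Zfp451, Zfp35 and Zfp277, each with an adjusted p of 0.83. Zfp445, a KRAB protein known for keeping imprints, stood at 1.20, 0.45, 0.703 and 2.76 CPM in OGD and 0.95, 1.78, 12.4 and 3.01 CPM in Acacetin, so that 1 library, Acacetin 3, carried its log2 fold change of 1.78 ± 0.70 and also its place above the 2 CPM limit. Zfp451, a SUMO ligase, stood at 2.20 to 5.91 CPM in OGD and 2.09, 4.34, 17.5 and 5.98 CPM in Acacetin (log2 1.13 ± 0.51). Acacetin 3 was also the highest of the 12 libraries for Zfp869 (6.13 CPM), Zfp35 (5.99 CPM) and Zfp277 (11.9 CPM), of which Zfp35 too met the limit through it.

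Libraries differed in how they ranked long and short members, as the plot by exon length shows. The 133 members were split into the 44 shortest (median 2544 bases of exon), 45 of middle length (4938) and the 44 longest (8276). Relative to the Control mean, the longest members had a median log2 level of 0.75 in Acacetin 3, 0.55 in OGD 4 and 0.50 in Acacetin 4, and of -0.25 in Acacetin 1. For all 2952 tested genes in their length range the medians were 0.65, 0.42, 0.35 and -0.44 in these libraries. The shortest members went the other way, at -0.32 in Acacetin 3 and -0.33 in Acacetin 4. Acacetin 3 was the library with the highest level for 23 of the 44 longest members (52.3%). The share was 46.0% for all 2952 tested genes in their length range. Of the 44 shortest members it was the highest for 2 (4.55%), beside 6.94% of the 6271 tested genes in their range. Some genes that met the 2 CPM limit through Acacetin 3, such as Zfp638, are among the longest members. Another, Zfp35, is among the shortest, so these counts are a description only.

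**Figure D5:**
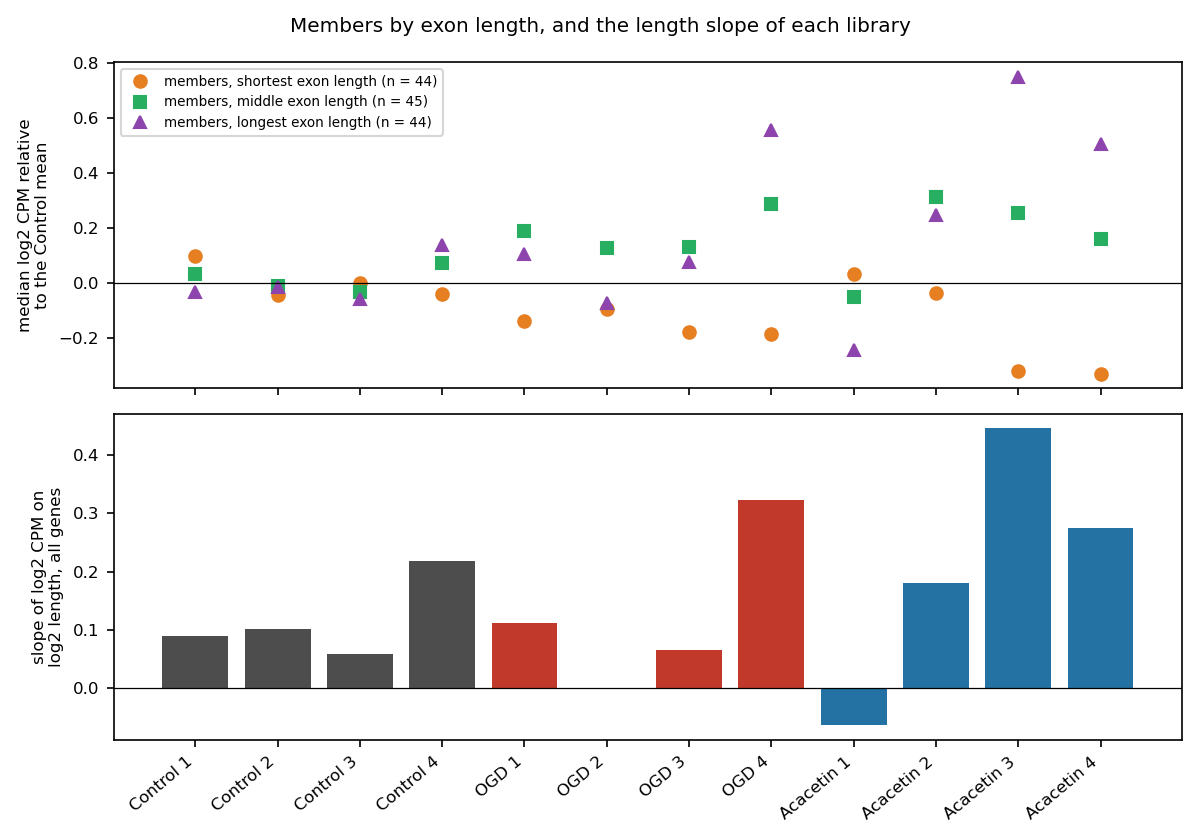
Upper panel, median log2 CPM relative to the Control mean for the shortest, middle and longest members by exon length in each of the 12 libraries. Lower panel, the slope of log2 CPM on log2 gene length over all genes in the same library. The gene length is that implied by the deposited counts and FPKM. The longest members are highest in Acacetin 3 (0.75), OGD 4 (0.55) and Acacetin 4 (0.50), the libraries with the steepest slopes. All tested genes in their length range, not plotted, had medians of 0.65, 0.42 and 0.35 there.

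The SD of log2 CPM within a group had a median of 0.42 in Acacetin and 0.22 in Control for the longest members, beside 0.39 and 0.22 over all tested genes. Zfp638, an RNA-binding protein, stood at 0.237, 2.45, 14.3 and 2.36 CPM in Acacetin 1 to 4, against 0.788 to 1.59 CPM in Control. Zfp148 and Zfp281, which bind GC-rich promoters, reached 9.87 and 7.23 CPM in Acacetin 3 and at most 3.15 CPM in any other library. Since Zfp638, Zfp148 and Zfp281 met the 2 CPM limit through Acacetin 3, their values there are a description only. The abundant Zfp106 stood at 15.4, 31.9, 102 and 49.8 CPM in Acacetin and 23.9 to 35.5 CPM in Control. None of the 4 passed the test in any comparison.

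The short members held the larger share of calls in OGD against Control. Of the 44 shortest, 10 rose and 13 fell (52.3%), where 31.1% of all tested genes in their length range were called. Of the middle 45, 6 rose and 6 fell (26.7%), where 31.0% of genes in that range were called. Of the 44 longest, 6 rose and 1 fell (15.9%), where 20.7% of genes in that range were called. The median exon length was 4496 bases for the rises, 3182 for the falls and 5821 for members that were not called. Removing the length trend of each library gave 45 called members, 22 higher and 23 lower. Over all genes it gave 4423 calls, beside 3813 in the main fit.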

How the data were processed

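RNA from 12 BV2 libraries had been sequenced as stranded mRNA libraries, per the labels' protocols. Among tools and builds, the submitters' processing notes list HISAT2, DESeq2, bcl2fastq and GRCm39, with neither version nor role. Counter, annotation and strand setting are not given in the sources used here. Raw read counts per gene were deposited by the authors and, separately, FPKM values. All columns of both tables matched a library, with 0 columns unmatched.

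Testing used edgeR 4.0.16 (R 4.3.3) on the counts after filterByExpr (minimum count 10, minimum total 15), which kept 13249 genes and all 133 members. The fit held 12 libraries, TMM scaling and 1 mean per group. Two-sided p-values received Benjamini-Hochberg adjustment over all tested genes, and a gene was called under 0.05. The SE is the absolute log2 fold change divided by the square root of the F statistic. The test was checked on simulated data. Alternatives used DESeq2 1.42.0, limma 3.58.1 on log2(FPKM + 1) and log2(FPKM + 0.1), other filters and scalings, a replicate block, a removed length trend (lowess span 0.5) and left-out libraries.

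Domains were searched with pyhmmer 0.12.3 (E at most 0.001) in coding sequences of GENCODE M21, matched by gene ID. M21 and the RefSeq promoter table are of GRCm38, so positions are given for promoters only. Overlapping exons are those of M21, and gene order is that of the RefSeq genes on GRCm38.p6.

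Members, lists and classes were chosen with earlier results of these data known. Named members were, among called members without overlap between groups, the 10 largest rises and falls in OGD and the 6 largest in Acacetin against Control, the 6 smallest p in Acacetin against OGD, 26 members with described roles, the 5 highest by FPKM and the 3 nearest the limit on each side. Other members named, such as those of the gene runs, were chosen after their values were seen.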

Additional observations from a re-analysis of the deposited data

Results flagged for a closer look

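In 8 of 165 group checks over the named members, 1 library stood apart from the other 3 of its group. Chance flags about 1 in 20 groups. Acacetin 1 had 8.64 CPM of Zfp94 where the other Acacetin libraries had 6.27 to 6.67 CPM. Acacetin 3 had 14.3 CPM of Zfp638 beside 0.237 to 2.45 CPM. Control 1 was low for Zfp346, at 30.0 CPM beside 37.8 to 38.9 CPM, and high for Zfp706, at 110 CPM beside 102 CPM in the other 3. Control 4 had 8.06 CPM of Zfp318 beside 5.12 to 5.57 CPM. OGD 4 was high for Zfp609, at 24.1 CPM beside 11.7 to 12.6 CPM, and for Zfp710, at 34.5 CPM beside 26.2 to 26.6 CPM. OGD 2 had 0.2 CPM of Zfp871 beside 1.33 to 1.41 CPM in the other OGD libraries.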

How the results depend on the processing

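In OGD against Control, 17 of the 42 called members kept their call under every one of 19 alternatives, and no called member changed sign. In Acacetin against Control it was 15 of 38. How many of the calls over all genes were kept in the same way was not counted, so both counts are a description only. Of 46 results for named members that were not called, 16 changed sign and 14 were called under at least 1 alternative. The causes of the following shifts were not tested. In OGD against Control, limma on log2(FPKM + 1) called 27 members and the fit without OGD 2 and OGD 3 called 26, beside 42, and the counts over all genes were 2831 and 2010, beside 3813. The members' median, 0.11, became -0.0105 and -0.0429 on the 2 FPKM scales (0.03 over all genes became -0.11 on the second), 0.21 without OGD 2 and OGD 3, and 0.0271 without OGD 4. In Acacetin against OGD the median became 0.19 and 0.31 on the FPKM scales, beside 0.05, with 0 members called throughout. In Acacetin against Control, limma called 22 and 17 members, and 2436 and 2410 of all genes, beside 38 members and 3559 genes by edgeR. The members' median on log2(FPKM + 0.1) was 0.30, beside 0.17 over all genes. Leaving out 1 library at a time gave 30 to 40 called members in OGD against Control (medians 0.03 to 0.18), 0 in Acacetin against OGD (medians 0.01 to 0.08), and 29 to 68 in Acacetin against Control (medians 0.17 to 0.29), with 68 without Acacetin 1. Without Acacetin 1 and 3, chosen after seeing the data, 45 members were called in the last comparison and 0 in Acacetin against OGD. Over all genes the calls were then 3970 and 4.

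Same-numbered libraries of different groups had a correlation over 0.1 in 8 of 12 pairs, with a range of -0.29 to 0.51. Differently numbered libraries ranged from -0.70 to 0.69, and a smaller share of their pairs than of the same-numbered pairs was over 0.1. Whether the same number marks libraries handled together was not tested. The main fit did not take the numbers as pairs. With the replicate block the count was 50 members in OGD against Control (27 up, 23 down), 46 in Acacetin against Control (23 each) and 0 in Acacetin against OGD. Over all genes the block gave 4572, 4279 and 2 calls in these comparisons, beside 3813, 3559 and 0 in the main fit.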
